A study of Homo sapiens with 4 samples.

Results

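The matrix metalloproteinases, their inhibitors the TIMPs, and the plasminogen activation system were described in T24 cells, an established human cell line from a bladder carcinoma, with and without overexpressed CBX7, a Polycomb protein of gene silencing. The 37 genes were chosen by name, as the rows of the deposited table whose gene name is on the list, out of 60623 genes in all: 18 metalloproteinases, the 4 TIMPs, 5 genes of plasminogen activation, 7 ADAM genes with ADAMTS1, and the membrane proteins BSG and RECK. The rule uses gene names and no measured value. RNA was sequenced in 2 libraries of control T24 cells and 2 libraries of T24 cells that overexpress CBX7, all grown in RPMI medium with fetal calf serum. In the study's methods the introduced CBX7 is the full-length coding sequence with a FLAG tag in a pCDH vector. What the control cells carry, and whether the cells are a clone or a pool, is not given in the sources used here. Nothing states that libraries of a group came from separate cultures, so the p-values measure only the spread between these samples, which may be technical. The study measured the MMP2 and MMP9 proteins as markers of invasion, and the question here is which proteases and inhibitors T24 cells transcribe and how each level compared between the groups.

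Matrix metalloproteinases are zinc-dependent enzymes that cut collagens, fibronectin, laminins and cell-surface proteins. Most are secreted as inactive proenzymes, whereas the membrane-type members stay on the cell surface and are activated inside the cell by furin-like proteases. TIMPs bind the active site of metalloproteinases and block it, and TIMP2 also forms the cell-surface complex with MMP14 in which pro-MMP2 is activated. In the plasminogen system, the activators PLAU (urokinase) and PLAT (tissue-type activator) convert plasminogen to plasmin, PLAUR holds urokinase on the cell surface, and serpins such as SERPINB2 and SERPINE2 inhibit the activators. In carcinoma tissue a large part of secreted MMP2 and MMP9 is known to come from fibroblasts and leukocytes.

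The deposited expected counts summed to between 20800910 and 25135488 per library, so that 3 counts, the limit that a count of 0 allows, correspond to between 0.124 and 0.143 CPM (counts scaled to TMM library size), counting error only. CBX7 was at 11 and 9.68 CPM in the control libraries and at 1774 and 1595 CPM in the CBX7 libraries, which matches the labels. The chi-square per degree of freedom between libraries of a group was 6.49 for control and 59.8 for CBX7, and in CBX7 replicate 1, but not in CBX7 replicate 2, log2 ratios to the same-numbered control library fell with gene length (Spearman's rho across 11077 genes -0.62 and 0.04, genes not being independent replicates). Values of both CBX7 libraries are therefore given separately for the members the results turn on. Of 13 epithelial and urothelial markers KRT7, KRT8 and KRT18 were abundant at means of 1273, 900.1 and 1184 TPM (a transcript level scaled by gene length), but the 4 uroplakin genes had between 0 and 3 counts, CDH1 between 0 and 2, and KRT5 none in any library. VIM, a mesenchymal filament gene, was at 2479 TPM. Of the other cell types that make these proteases, the defining leukocyte genes PTPRC and MPO had at most 1 count in a library, and DCN, a fibroblast gene, had 3 to 10. COL1A1, in the fibroblast list, was at 2.51 and 2.57 CPM in control and 3.60 and 4.74 CPM in CBX7 libraries (log2 fold change 0.71), and CD68, in the leukocyte list, at 13.0 and 10.4 against 8.50 and 6.92 CPM (log2 fold change -0.60), both with an unadjusted p under 0.05 in edgeR's test. The part of these markers in the protease results was not tested. The summed level of 5 fibroblast markers was 2.12 and 2.14 TPM in control and 2.22 and 6.22 TPM in CBX7 libraries, that of 6 leukocyte markers was 11.8 and 9.50 against 6.37 and 7.11 TPM, nearly all of it CD68, and that of 4 endothelial markers ran from 0.20 to 0.34 TPM. In bulk RNA, fewer cells of a type and less RNA per cell cannot be told apart.

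T24 cells transcribed a short list of these genes at a high level. The order by mean over the 4 libraries began with BSG at 344 TPM, TIMP1 at 286 TPM, PLAU at 159 TPM, MMP14 at 126 TPM, ADAM15 at 102 TPM, TIMP2 at 93.7 TPM, ADAM9 at 90.7 TPM and PLAUR at 84.9 TPM. It went on with ADAM10 at 50.4 TPM, PLAT at 29.8 TPM, ADAMTS1 at 16.9 TPM, ADAM17 at 15.2 TPM, MMP17 at 12.7 TPM and ADAM8 at 12.5 TPM. These 14 genes had a mean of at least 10 TPM, 10 genes had between 1 and 10 TPM, and 13 had less than 1 TPM. Of the 18 metalloproteinases 12 were in the lowest class, while all 5 genes of plasminogen activation and all 8 of the ADAM group were above it. MMP2 and MMP9 stood at 0.230 and 0.0350 TPM.

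**Figure D1:**
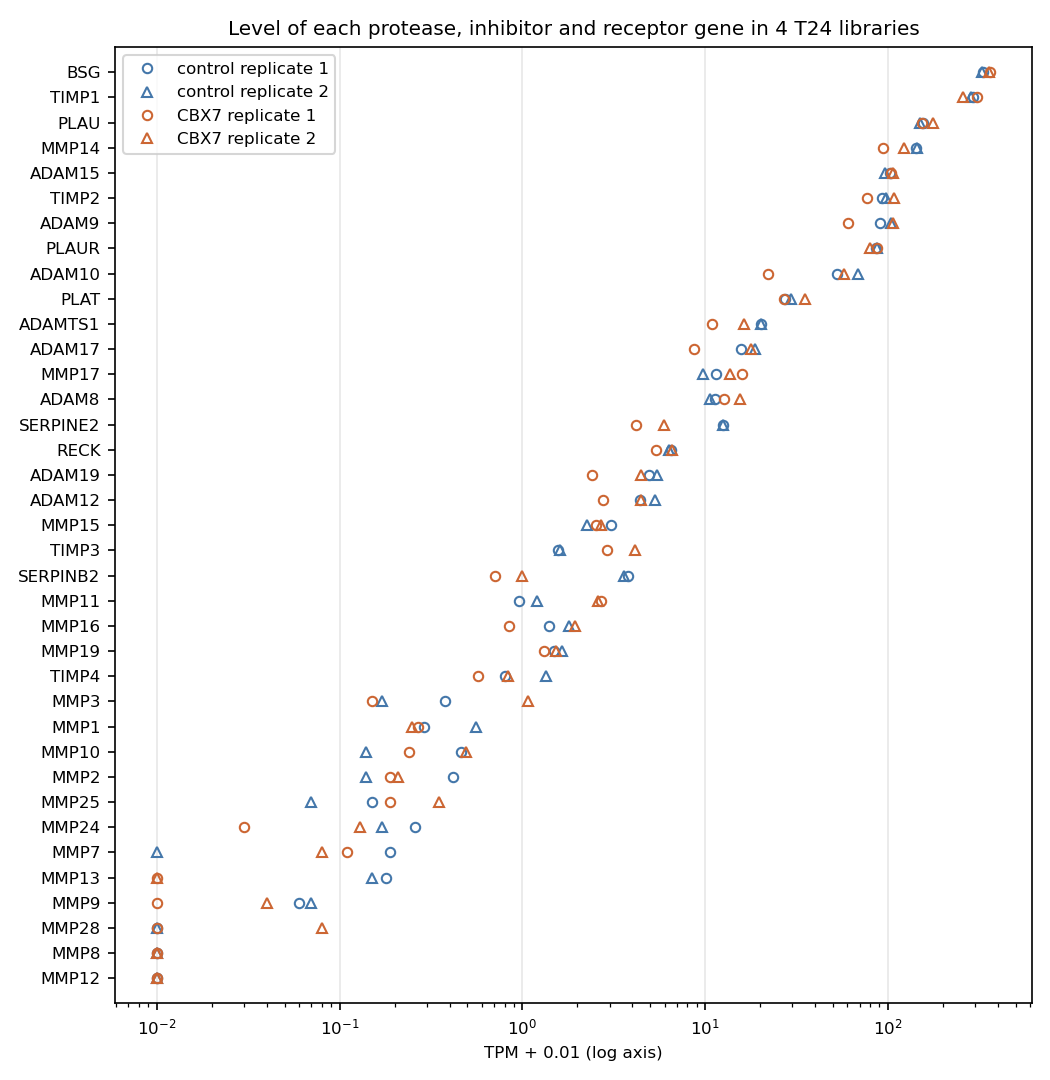
Level of each of the 37 genes in each library, as TPM plus 0.01 on a log axis, ordered by the mean of the 4 libraries; circles are replicate 1, triangles replicate 2, blue control and orange CBX7, and points at 0.01 are zeros. The spread between genes, from 0 to 344 TPM, is far wider than that between libraries, and MMP2 and MMP9 lie among the genes under 1 TPM.

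The promoters of 7 members are shown: SERPINB2, the member with the lowest ratio of CBX7 to control cells among those above 1 TPM, SERPINE2, the other lower serpin, which has 2 annotated starts, MMP7 and MMP10, which had almost no counts, TIMP3 and MMP11, the members with the highest ratios, and MMP14, the main metalloproteinase of these cells. MMP8, MMP24 and TIMP4, also matched and under 1 TPM, are not shown. Each is the stretch of 250 bases before an annotated start in RefSeq, build GRCh38.p14, matched by symbol (22 of 37 members matched, with 25 promoters). The deposited table has no coordinates, and the submitters' notes list hg19. Capitals mark TGANTCA, the core of an AP-1 site, which reads the same on both strands, and TATAAA on the strand of the gene.
SERPINB2 chr18:63887455-63887704, plus strand: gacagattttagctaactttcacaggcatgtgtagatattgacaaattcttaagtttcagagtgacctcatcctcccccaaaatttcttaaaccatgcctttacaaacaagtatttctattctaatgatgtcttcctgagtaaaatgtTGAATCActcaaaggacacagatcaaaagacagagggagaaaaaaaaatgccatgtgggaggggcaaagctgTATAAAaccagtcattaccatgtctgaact
SERPINE2 chr2:224031479-224031728, minus strand: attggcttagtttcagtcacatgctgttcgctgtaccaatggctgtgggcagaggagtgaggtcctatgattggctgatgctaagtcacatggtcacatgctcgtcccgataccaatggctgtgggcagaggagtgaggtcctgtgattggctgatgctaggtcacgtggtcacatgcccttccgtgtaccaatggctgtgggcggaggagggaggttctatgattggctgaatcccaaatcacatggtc
SERPINE2 chr2:224038641-224038890, minus strand: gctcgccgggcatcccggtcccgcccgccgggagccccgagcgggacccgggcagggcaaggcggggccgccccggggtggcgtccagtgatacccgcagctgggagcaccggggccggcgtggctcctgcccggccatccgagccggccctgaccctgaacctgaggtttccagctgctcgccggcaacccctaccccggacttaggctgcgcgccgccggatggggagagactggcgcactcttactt
MMP7 chr11:102530748-102530997, minus strand: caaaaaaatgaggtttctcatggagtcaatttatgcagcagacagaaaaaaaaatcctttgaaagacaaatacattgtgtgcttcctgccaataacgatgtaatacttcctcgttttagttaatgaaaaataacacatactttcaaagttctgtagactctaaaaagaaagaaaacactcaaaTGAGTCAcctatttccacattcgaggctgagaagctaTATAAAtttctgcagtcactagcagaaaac
MMP10 chr11:102780629-102780878, minus strand: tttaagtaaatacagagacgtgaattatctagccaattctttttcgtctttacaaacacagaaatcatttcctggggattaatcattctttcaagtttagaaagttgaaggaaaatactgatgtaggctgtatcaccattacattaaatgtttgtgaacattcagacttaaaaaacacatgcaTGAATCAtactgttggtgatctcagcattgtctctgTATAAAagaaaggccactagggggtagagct
TIMP3 chr22:32801455-32801704, plus strand: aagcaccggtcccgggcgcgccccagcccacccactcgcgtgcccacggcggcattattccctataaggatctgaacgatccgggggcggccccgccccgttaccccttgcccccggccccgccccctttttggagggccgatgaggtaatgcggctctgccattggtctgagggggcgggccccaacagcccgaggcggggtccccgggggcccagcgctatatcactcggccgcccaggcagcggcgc
MMP11 chr22:23772599-23772848, plus strand: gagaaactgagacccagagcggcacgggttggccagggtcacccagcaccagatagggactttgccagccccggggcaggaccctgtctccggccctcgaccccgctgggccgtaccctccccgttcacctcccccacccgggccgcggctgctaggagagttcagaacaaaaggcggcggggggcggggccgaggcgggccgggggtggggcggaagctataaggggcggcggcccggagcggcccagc
MMP14 chr14:22836335-22836584, plus strand: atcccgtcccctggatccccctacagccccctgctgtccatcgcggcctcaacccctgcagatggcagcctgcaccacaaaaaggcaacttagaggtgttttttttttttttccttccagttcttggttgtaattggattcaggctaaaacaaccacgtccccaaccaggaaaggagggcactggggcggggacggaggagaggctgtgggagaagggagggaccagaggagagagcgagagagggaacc

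In SERPINB2, MMP7 and MMP10 both motifs were present, with the first base of the TGANTCA match 102, 67 and 67 bases before the start, respectively. Both motifs together were found in 3 of 25 member promoters (12%) and in 245 of 35116 promoters of this length in the table (0.698%). TGANTCA alone was in 4 member promoters (16.0%, the fourth being PLAUR) and in 6.57% of all, and TATAAA on the gene's strand in 4 (16.0%, the fourth being MMP8) and in 6.80% of all, or 10.7% when either strand was counted. The promoters of SERPINB2, MMP7 and MMP10 held 0, 3 and 2 CpG dinucleotides, whereas those of MMP14, MMP11 and TIMP3 held 7, 22 and 26, against a median of 21 in member promoters and 11 in all. CpG content did not follow the level in other members: the promoter of MMP24, at 0.138 TPM, held 25 and neither motif, and the promoters of PLAU, at 159 TPM, held 4 and 24. The 2 promoters of SERPINE2 held neither motif, with 6 and 28 CpG, and that of MMP8, a gene with no counts, held TATAAA but not TGANTCA, with 0 CpG. These are counts of letters in a fixed window and say nothing of which factor binds there.

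Between the groups, the differences of more than 1 on the log2 scale in genes above 1 TPM were in 2 plasminogen activator inhibitors, which were lower in CBX7 cells (SERPINB2, 4.11-fold and SERPINE2, 2.27-fold), and in the metalloproteinase inhibitor TIMP3 and the metalloproteinase MMP11, which were higher (2.36-fold and 2.75-fold). The abundant members differed by less: MMP14, PLAU, PLAUR, TIMP1, TIMP2 and BSG all lay within 0.30 of 0 on the log2 scale. Of the 37 members 26 passed edgeR's filter on low counts, and 11 metalloproteinases did not. By edgeR's quasi-likelihood fit, Benjamini-Hochberg adjusted over all genes, 0 of the 26 had an adjusted p under 0.05, against 3 of 14862 genes tested (0.0202%). At an unadjusted p under 0.05 there were 8 members (30.8%; MMP11, TIMP3, MMP17 and ADAM8 higher, SERPINB2, SERPINE2, ADAM19 and ADAMTS1 lower in CBX7 cells), against 4.74% of all genes (3.42% higher and 1.32% lower). Both CBX7 libraries lay on the same side of both control libraries in 17 members (65.4%), against 30.3% of all genes. In TPM as well as CPM this held for 12 of these members and for 16.8% of all genes, and the groups overlapped in TPM for ADAM12, MMP15, PLAT, PLAU and TIMP4. MMP24, which passed the filter only through the control group, is counted among the 26, the 17 and the 12. The median log2 fold change was -0.07 over the 26 members and 0.0017 over all genes. DESeq2's Wald test without the filter gave 3 members with an adjusted p under 0.05, namely SERPINB2, SERPINE2 and TIMP3, against 0.225% of 26247 genes. With the filter left out of edgeR's test there were 4, these and MMP11, against 1.01% of genes; there the spread of each gene was shrunk fully to the trend across genes, which it was not in the reported fit. A correction for gene length and limma on log2(TPM + 1) each gave 0, against 0.0135% of genes.

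**Figure D2:**
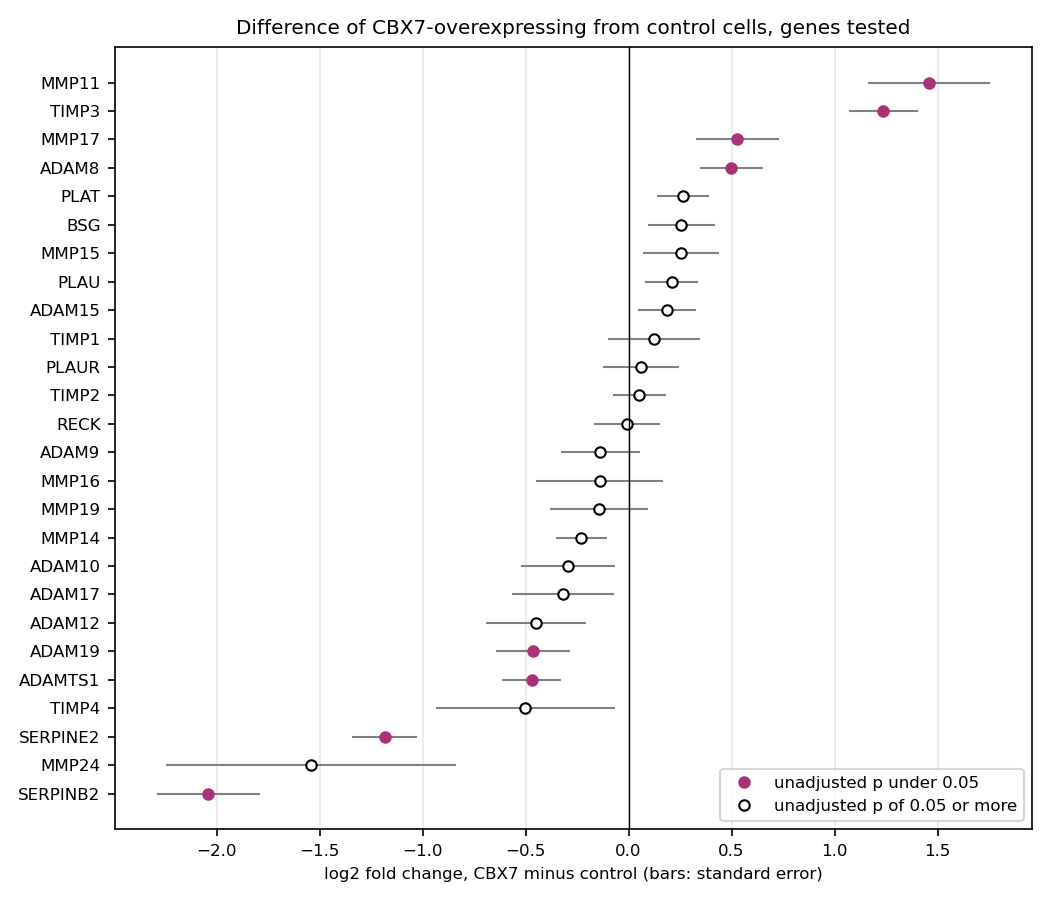
Log2 fold change of CBX7-overexpressing against control cells for the 26 genes tested, with standard errors as bars, from edgeR's quasi-likelihood fit; filled points have an unadjusted p under 0.05. SERPINB2 and SERPINE2 are at the low end, at -2.04 and -1.18, and TIMP3 and MMP11 at the high end, at 1.24 and 1.46, while most abundant genes lie near 0. MMP24, drawn between SERPINB2 and SERPINE2, passed the filter only through the control group, so its position is not read.

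MMP14, the membrane-type collagenase that activates pro-MMP2, made up most of the metalloproteinase transcripts. It was at 301 and 298 CPM in control cells and at 263 and 248 CPM in CBX7 cells, so that both CBX7 libraries were below both control libraries. The log2 fold change was -0.23 (standard error 0.12, 95% interval -0.53 to 0.08), and the test did not separate the groups (adjusted p = 0.951, edgeR). Summed over the 18 metalloproteinases, the level was 163 and 162 TPM in control libraries and 118 and 148 TPM in CBX7 libraries, or 162 ± 0.792 and 133 ± 20.7 TPM (SD, n = 2). MMP14 accounted for 87.4% and 88.9% of this sum in control and 79.3% and 83.0% in CBX7 libraries, and MMP14 with MMP17 for 92.3% to 94.9% in all 4. Without MMP14 the sum was 20.6 and 17.9 TPM in control and 24.4 and 25.0 TPM in CBX7 libraries. The deposited MMP14 level per CPM was lower in CBX7 replicate 1, at 0.371 TPM, than in the other libraries, at 0.469 to 0.486 TPM, which enters these sums. An exact permutation test of 2 against 2 libraries cannot give a two-sided p under 0.333, so none is given for sums and ratios.

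MMP17, a membrane-type enzyme held by a lipid anchor, was the only other metalloproteinase above 10 TPM. Its libraries were at 10.9 and 10.3 CPM in control and at 17.8 and 12.8 CPM in CBX7 cells, with CBX7 replicate 1 further from control than CBX7 replicate 2. The log2 fold change was 0.53 (standard error 0.20, unadjusted p = 0.0424, adjusted p = 0.951 in edgeR's test). MMP11, an enzyme secreted in active form, was low in control cells, at 32 and 38 counts, and had 120 and 82 counts in CBX7 cells. In CPM these were 1.34 and 1.81 against 4.97 and 3.67, a log2 fold change of 1.46 (standard error 0.30, unadjusted p = 0.00327, adjusted p = 0.443 in edgeR's test). The groups did not overlap, and the level in CBX7 cells was 2.62 ± 0.0778 TPM against 1.07 ± 0.170 TPM in control cells (SD, n = 2).

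The remaining tested metalloproteinases were low, and none had an unadjusted p under 0.05. MMP15, MMP16 and MMP24 are membrane-type enzymes, and MMP19 is a secreted one. The log2 fold changes were 0.25 for MMP15, -0.14 for MMP16 and -0.14 for MMP19, at mean levels of 2.62, 1.49 and 1.49 TPM. MMP15 was at 7.50 and 6.48 CPM in control and 8.99 and 7.70 CPM in CBX7 cells, but overlapped in TPM, at 3.04 and 2.24 against 2.52 and 2.70 TPM, and its difference in limma's fit on log2(TPM + 1) was slightly negative, at -0.0036. MMP16 had 12.5 and 15.4 CPM in control cells, and its CBX7 libraries stood on opposite sides of these, at 8.90 and 16.4 CPM. MMP24 had counts of 19.5 and 10.5 in control and 2.10 and 8.37 in CBX7 libraries. It passed the filter only through the control group, so no fold is given for it and its lack of overlap is not read.

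MMP2 (gelatinase A) had 12 and 2 counts in control libraries and 2 and 6 counts in CBX7 libraries, or 0.41, 0.13, 0.18 and 0.20 TPM. The groups overlapped, and the gene was not tested. MMP9 (gelatinase B) had 2 and 2 counts in control and 0 and 1 count in CBX7 libraries, at most 0.06 TPM. All of these MMP9 counts are at or under the limit of 3 that a count of 0 allows, so a difference in MMP9 between the groups was not detectable at this depth. The sum of MMP2 and MMP9 was 0.46 and 0.19 TPM in control and 0.18 and 0.23 TPM in CBX7 libraries, against 93.8 to 144 TPM of MMP14.

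On chromosome 11 the RefSeq annotation places 9 metalloproteinase genes in a row, and 7 of them are members: MMP7 (matrilysin), MMP8 (neutrophil collagenase), MMP10 and MMP3 (stromelysins), MMP1 (interstitial collagenase), MMP12 (macrophage elastase) and MMP13 (collagenase). In T24 cells this run was almost without transcripts: the 7 genes together had 37 and 24 counts in control and 23 and 25 counts in CBX7 libraries. None of them had a mean above 0.432 TPM, and MMP1 had the most counts, 41 over the 4 libraries. MMP1 had 9 and 15 counts in control and 10 and 7 in CBX7 libraries, MMP10 had 10 and 3 against 6 and 12, and MMP7 had 3 and 0 against 2 and 1. MMP8 and MMP12 were at 0 in every library, which allows up to 3 counts in each. MMP13 had 4 and 2 counts in control and none in CBX7 libraries, too few to give a fold. Among the members elsewhere in the genome, MMP25 had between 3.29 and 12.6 counts and MMP28 had 2 counts in CBX7 replicate 2 and none in the others.

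TIMP transcripts exceeded metalloproteinase transcripts in every library. The 4 TIMPs summed to 386 and 386 TPM in control and 389 and 369.8 TPM in CBX7 libraries, 2.37 and 2.38 times the metalloproteinase sum in control and 3.30 and 2.51 times in CBX7 libraries. TIMP1, the main secreted inhibitor here, gave 69.5% to 79.3% of the TIMP sum. Its libraries were at 120.3 and 114 CPM in control and at 155 and 101 CPM in CBX7 cells, on either side of control, with a log2 fold change of 0.12 (standard error 0.22, adjusted p = 0.951, edgeR). TIMP2 was at 232 and 233 CPM in control and at 227 and 254 CPM in CBX7 cells, and its log2 fold change of 0.05 had a 95% interval of -0.27 to 0.37. The ratio of TIMP2 to MMP14, in TPM, was 0.649 and 0.678 in control and 0.821 and 0.881 in CBX7 libraries.

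TIMP3 was the only TIMP with an unadjusted p under 0.05. It is the inhibitor that binds the extracellular matrix and also blocks ADAM17. Control libraries had 129 and 111 counts and CBX7 libraries 283 and 302, or 5.41 and 5.29 CPM against 11.7 and 13.5 CPM, with no overlap and with log2 ratios to the control mean of 1.13 and 1.34. The log2 fold change was 1.24 (standard error 0.17, 95% interval 0.82 to 1.66, unadjusted p = 0.000452, adjusted p = 0.260 in edgeR's test). The adjusted p was 0.0184 in DESeq2's Wald test and 0.0754 in edgeR's test after each library's trend with gene length was taken out. Even in CBX7 cells TIMP3 was a minor TIMP, at 3.52 ± 0.898 TPM (SD, n = 2) against 283 ± 36.9 TPM of TIMP1. TIMP4 had 12 to 20 counts per library and a log2 fold change of -0.50 (standard error 0.44).

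Both plasminogen activators were expressed, and in CPM, though not in TPM, both CBX7 libraries were slightly above control. PLAU, urokinase, was at 255 and 239 CPM in control and 297 and 273 CPM in CBX7 cells (log2 fold change 0.21, standard error 0.13, 95% interval -0.11 to 0.53). PLAT, the tissue-type activator, was at 55.6 and 53.8 CPM in control and 65.3 and 65.9 CPM in CBX7 cells (log2 fold change 0.26, standard error 0.13, 95% interval -0.05 to 0.58). In TPM the groups overlapped for PLAU, at 155 and 151 against 153 and 176 TPM, and for PLAT, at 27.3 and 29.4 against 27.1 and 35.4 TPM. The groups did not overlap in CPM in either gene, and the adjusted p was 0.951 for both in edgeR's test. PLAUR, the urokinase receptor, was at 73.9 and 69.7 CPM in control and at 86.6 and 63.2 CPM in CBX7 cells, on either side of control (log2 fold change 0.06, standard error 0.19, adjusted p = 0.959, edgeR).

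The inhibitors of these activators differed by more, and both were lower in CBX7 cells. SERPINB2, which inhibits urokinase, had 118 and 94 counts in control and 26 and 27 counts in CBX7 libraries. In CPM these were 4.95 and 4.48 against 1.08 and 1.21, without overlap, at log2 ratios to the control mean of -2.13 and -1.96. The fitted log2 fold change was -2.04 (standard error 0.25, 95% interval -2.66 to -1.42), with an unadjusted p = 0.000256 and an adjusted p = 0.241 in edgeR's test. The adjusted p was 0.00739 in DESeq2's Wald test and 0.0774 in edgeR's test with the length trend removed. SERPINE2 encodes a serpin that inhibits urokinase, tissue-type activator and thrombin at the cell surface. It was at 19.4 and 17.5 CPM in control and at 7.66 and 8.59 CPM in CBX7 cells, without overlap, with a log2 fold change of -1.18 (standard error 0.16, 95% interval -1.58 to -0.79). The unadjusted p was 0.000411 and the adjusted p was 0.260 in edgeR's test, and the adjusted p was 0.00613 in DESeq2's Wald test and 0.117 in edgeR's test with the length trend removed. The sum of SERPINB2 and SERPINE2 divided by the sum of PLAU and PLAT, in TPM, was 0.0896 in both control libraries and 0.0272 and 0.0328 in CBX7 libraries. In every library the activators exceeded these inhibitors in transcripts more than 10-fold.

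**Figure D3:**
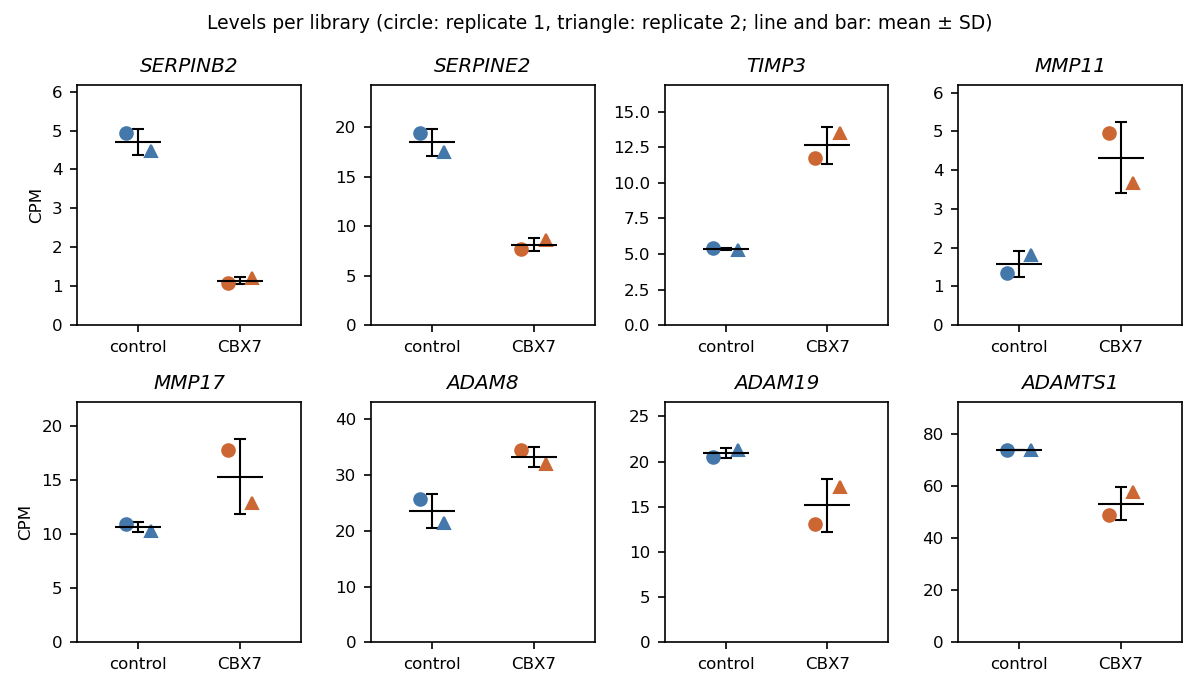
Level in CPM of the 8 genes with an unadjusted p under 0.05, in each library; circles are replicate 1, triangles replicate 2, and lines with bars the mean ± SD of 2 libraries. In all 8 genes the CBX7 libraries lie outside the range of the control libraries, from SERPINB2 at 1.08 and 1.21 against 4.95 and 4.48 CPM to ADAMTS1 at 48.9 and 57.7 against 73.8 and 74.0 CPM. The genes were chosen by p in the same libraries, which favours groups that do not overlap.

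The ADAM genes encode membrane proteases that shed the extracellular parts of cell-surface proteins. All 7 ADAM members and ADAMTS1 were tested; 6 of the 8 had a negative log2 fold change and 2 a positive, with a median of -0.31, against 49.7% negative among all genes. Of the 8 genes 7 are at least 3000 bases long, and the median log2 ratio to the control mean was -0.62 in CBX7 replicate 1 and -0.02 in CBX7 replicate 2. After the length correction 6 were negative with a median of -0.19. ADAM15, an ADAM with an integrin-binding motif, was at 155 and 144 CPM in control and 182 and 158 CPM in CBX7 cells, without overlap (log2 fold change 0.19, standard error 0.14). ADAM9 was at 273 and 301 CPM in control, and at 218 and 304 CPM in CBX7 cells (log2 fold change -0.14, standard error 0.19), so that the CBX7 libraries stood on either side of the control range.

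ADAM10 and ADAM17, the sheddases of Notch receptors and of TNF respectively, were lower than control in CBX7 replicate 1. ADAM10 was at 104 and 115 CPM in control and at 70.2 and 109 CPM in CBX7 cells, with a log2 fold change of -0.29 (standard error 0.23). Its difference was -0.12 after the length correction and -0.73 in limma's fit on log2(TPM + 1). ADAM17 was at 43.3 and 49.8 CPM in control and at 28.5 and 46.0 CPM in CBX7 cells, with a log2 fold change of -0.32 (standard error 0.25). In both genes CBX7 replicate 1 was well below control and CBX7 replicate 2 lay within its range, and the adjusted p was 0.951 for both in edgeR's test. ADAM12, at a mean of 4.23 TPM, was at 26.4 and 30.2 CPM in control and 16.1 and 25.4 CPM in CBX7 cells, and overlapped in TPM, at 4.39 and 5.34 against 2.74 and 4.44 TPM. It had a log2 fold change of -0.45 (standard error 0.24), with -0.82 in CBX7 replicate 1 and -0.16 in CBX7 replicate 2 relative to the control mean.

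ADAM8, ADAM19 and ADAMTS1 had an unadjusted p under 0.05, and their groups did not overlap, which a choice by p in the same libraries favours. ADAM8, an ADAM best known from leukocytes, was at 25.6 and 21.3 CPM in control and at 34.5 and 32.0 CPM in CBX7 cells (log2 fold change 0.50, standard error 0.15, unadjusted p = 0.0192, adjusted p = 0.837 in edgeR's test). ADAM19 was at 20.5 and 21.3 CPM in control and at 13.1 and 17.2 CPM in CBX7 cells (log2 fold change -0.46, standard error 0.18, unadjusted p = 0.0438, adjusted p = 0.951 in edgeR's test). ADAMTS1, a secreted protease that cuts the proteoglycans aggrecan and versican, was at 73.8 and 74.0 CPM in control and at 48.9 and 57.7 CPM in CBX7 cells (log2 fold change -0.47, unadjusted p = 0.0192, adjusted p = 0.837 in edgeR's test). The control libraries of ADAMTS1 were almost equal, and the log2 ratios of the CBX7 libraries to their mean were -0.60 and -0.36.

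BSG encodes basigin, a membrane glycoprotein known as an inducer of metalloproteinases in neighbouring stromal cells, and was the most abundant member. Its libraries were at 354 and 335 CPM in control and at 462 and 360.2 CPM in CBX7 cells, with a log2 fold change of 0.26 (standard error 0.16, adjusted p = 0.951, edgeR). In TPM the groups were 329 ± 3.07 and 360.2 ± 4.96 (SD, n = 2). RECK, a membrane-anchored inhibitor of metalloproteinases, was at 13.8 and 13.7 CPM in control and at 12.4 and 14.9 CPM in CBX7 cells, on either side of control. Its log2 fold change was -0.01, with a 95% interval of -0.41 to 0.40.

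The CBX7 libraries differed from each other in several members, and gene length moved with this. Among the 16 tested members of at least 3000 bases in the deposited length column, 12 were below control in CBX7 replicate 1, with a median log2 ratio of -0.29, and 8 in CBX7 replicate 2, with a median of 0.03. The 10 shorter members had medians of 0.28 and -0.06. Across the 26 members Spearman's rho between length and log2 ratio was -0.30 in CBX7 replicate 1 and 0.21 in CBX7 replicate 2, given as a description of members that share a library. The 4 members above 1 TPM whose log2 fold change exceeded 1 in either direction were chosen on the mean of the same libraries, and their log2 ratios to the control mean in CBX7 replicates 1 and 2 are given as a description: MMP11 at 1.66 and 1.22, TIMP3 at 1.13 and 1.34, SERPINE2 at -1.27 and -1.10, and SERPINB2 at -2.13 and -1.96.

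**Figure D4:**
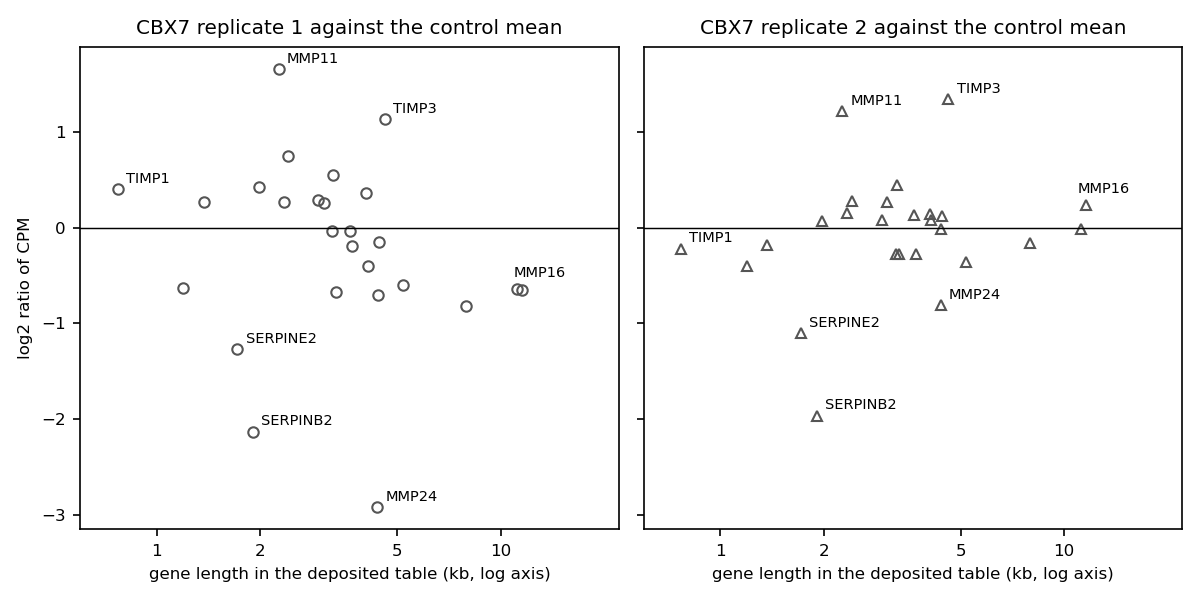
Log2 ratio of CPM in each CBX7 library to the mean of the control libraries, against gene length in kb on a log axis, for the 26 genes tested. In replicate 1 the longer genes lie mostly below 0 and the shorter ones above, a slope not seen in replicate 2, and MMP11, TIMP3, SERPINE2 and SERPINB2, which were chosen on the mean of these libraries, are labelled.

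The other genes of these pathways were counted as lists. Of 5 further metalloproteinase genes 1 was tested and none had an unadjusted p under 0.05. Of 14 further ADAM genes 4 were tested, with ADAM11 higher (log2 fold change 1.51, standard error 0.31, adjusted p = 0.443 in edgeR's test) and ADAM23 lower in CBX7 cells (-0.90, standard error 0.22, adjusted p = 0.597) at an unadjusted p under 0.05. That is 50% of those tested, against 4.74% of all genes. ADAM11 was low, with 20 and 20 counts in control and 69 and 50 in CBX7 libraries, a mean of 0.79 TPM. ADAM23 was at a mean of 2.48 TPM. ADAM11 and ADAM23 both belong to the ADAMs without protease activity. Of 18 further ADAMTS genes 7 were tested and none had an unadjusted p under 0.05; ADAMTS12 was the most abundant, at 33.7 TPM, with 159 and 189.8 CPM in control and 119 and 202 CPM in CBX7 cells.

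Plasminogen itself, PLG, had 4 and 2 counts in control and 0 and 2 in CBX7 libraries. Of the surface receptors and the clearance receptor that handle it, ENO1, ANXA2 and S100A10 were at 3276, 2614 and 626 TPM, and PLGRKT and LRP1 at 21.7 and 13.7 TPM. In this list of 8 genes 5 were tested, none had an unadjusted p under 0.05, and the log2 fold changes ran from -0.26 (LRP1) to 0.22 (S100A10). ANXA2, S100A10 and ENO1 have processed pseudogenes, and how reads shared with these were counted is not given in the sources used here.

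Of 8 proteases that activate metalloproteinases or urokinase, with their inhibitors, 5 were tested. FURIN, the activator of membrane-type metalloproteinases, was at 36.2 TPM with a log2 fold change of 0.02 (95% interval -0.30 to 0.35), and PCSK7 at 19.1 TPM with -0.09. The 2 inhibitors of matriptase-type serine proteases in the list were both higher in CBX7 cells at an unadjusted p under 0.05 in edgeR's test. They are 40% of the 5 genes tested, against 4.74% of all genes. The proteases of this type in the list were almost without counts. ST14, which encodes matriptase, had 2 and 0 counts in control and 0 and 2 in CBX7 libraries. HPN had 0 and 0 against 0 and 1. SPINT1 was at 9.18 and 6.86 CPM in control and at 18.8 and 16.3 CPM in CBX7 cells (log2 fold change 1.13, standard error 0.20, adjusted p = 0.361 in edgeR's test). SPINT2 was at 52.2 and 48.9 CPM in control and at 82.6 and 64.9 CPM in CBX7 cells (log2 fold change 0.55, standard error 0.17, adjusted p = 0.823 in edgeR's test). Beside these, the epithelial marker KRT19 was at 6.54 and 5.72 CPM in control and 18.5 and 12.8 CPM in CBX7 cells (log2 fold change 1.35, adjusted p = 0.352 in edgeR's test). GATA3 was at 0.126 and 0.191 CPM in control and 0.580 and 0.985 CPM in CBX7 libraries and passed the filter only through the CBX7 group, so no test is given for it. In the other tested epithelial markers the differences were smaller. KRT7, KRT8, EPCAM and PPARG overlapped between the groups in CPM (log2 fold changes 0.28, 0.22, 0.59 and 0.05), and KRT18 did not (0.30).

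AP-1 and ETS factors are known regulators of metalloproteinase and urokinase genes. All 11 genes of that list were tested and none had an unadjusted p under 0.05. FOSL1 was the most abundant at 437 TPM, with a log2 fold change of -0.02 (95% interval -0.36 to 0.33). JUN was at 78.9 TPM with 0.05, ETS1 at 83.5 TPM with -0.23, ETV4 at 42.8 TPM with 0.12, ETV5 at 40.5 TPM with 0.00, JUND at 28.5 TPM with 0.24 and JUNB at 20.2 TPM with 0.12. The groups did not overlap in 3 of the 11 genes (27.3%), near the 30.3% of all genes (14.8% lower). All 3 were lower in CBX7 cells. FOSL2 was at 158 and 170.3 against 99.9 and 144 CPM (28.3 TPM, log2 fold change -0.43, standard error 0.20). ETS2 was at 77.5 and 76.4 against 67.3 and 68.4 CPM (31.0 TPM, -0.18, standard error 0.13). FOSB, named after its values were seen, was at 15.3 and 17.0 against 13.5 and 13.3 CPM (-0.27, standard error 0.15). FN1, a substrate of several of these proteases and a mesenchymal marker, was at 1770 and 1940 CPM in control and at 689 and 1132 CPM in CBX7 cells (log2 fold change -1.03, standard error 0.25, adjusted p = 0.597 in edgeR's test). Of the other mesenchymal markers, VIM overlapped between the groups (log2 fold change -0.19, standard error 0.15). CDH2 was lower in CBX7 cells without overlap (-0.23, standard error 0.16).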

How the data were processed

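Libraries of T24 cells, 2 of control and 2 of CBX7-overexpressing cells, were prepared with random primers and sequenced on an Illumina HiSeq instrument; strandedness is not given in the sources used here. The authors deposited an expected count (estimated count) per gene and library and a TPM value scaled by gene length. Of the counts 88.2% to 88.9% were whole when zeros are included, and 66.9% to 68.6% among genes with counts. They also deposited group mean TPM, a fold (ratio), a log2 fold change, a p-value and an adjusted p-value of their own comparison, none of which was used. The submitters' processing notes name cutadapt 1.9.1, HISAT2 2.0.1, HTSeq 0.6.1, DESeq2 and hg19 without their roles; 96.5% of the gene identifiers are in GENCODE release 29.

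Rounded counts passed filterByExpr and TMM scaling, and condition was tested over all genes by the quasi-likelihood method of edgeR 4.0.16 (glmQLFit, glmQLFTest; R 4.3.3) with p-values adjusted after Benjamini and Hochberg. Each standard error was derived from the log2 fold change and its F statistic. CPM is the count scaled to the TMM library size. Levels are compared between genes only in TPM.

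All 37 members are accounted for. MMP2, MMP9, members of at least 10 TPM and members with an unadjusted p under 0.05 are given in full, 21 in all. Further pathway genes are named at 10 TPM or at that p, and PLG, ST14, HPN, FN1 and other markers as checks. The members, lists and tests were chosen with earlier results of these data known. Alternatives were edgeR's newer quasi-likelihood form, DESeq2's size factors, DESeq2 1.42.0's Wald test, no filter, a replicate block, a correction for gene length (a lowess trend per library over genes of at least 100 counts), both together, limma 3.58.1 on log2(TPM + 1), and each library left out. Promoter sequences are from RefSeq.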

Additional observations from a re-analysis of the deposited data

How the results depend on the processing

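Among all genes, an adjusted p under 0.05 was reached by 3 as reported, 59 in DESeq2's Wald test, 265 with no filter, 361 with a replicate block, 270 with the block and the length correction, and 45 to 5491 when 1 library was left out; an unadjusted p under 0.05 was reached by 705, 416, 1368, 1511, 1748, and 382 to 6647. For the members the adjusted counts were 0 as reported and 3, 4, 4, 5, and 1 to 19, and the unadjusted count of 8 became 13 with the block and length correction, 5 with limma and 4 to 20 with 1 library left out. The 1 member called without either control library was SERPINB2; there were 5 without CBX7 replicate 1 and 19 without CBX7 replicate 2, where the lone library is assumed to vary like the other group and the spread is shrunk fully to its trend, as it was with no filter and with the block (prior degrees of freedom without limit, against 3.61 as reported). The newer quasi-likelihood form, DESeq2's size factors and the length correction alone called 0 members. Replicate numbers are shared by both groups but nothing says that they mark a culture or day: deviations of same-numbered libraries correlated at 0.31 over 14862 genes and 0.61 over 11077 genes of at least 100 counts, and with the block the members called were SERPINB2, SERPINE2, TIMP3 and MMP11, joined by ADAM8 when length was also corrected. Of 228 alternative log2 fold changes of the 19 tested members given in full, 178 kept direction and side of the threshold, 39 kept direction and passed it, and 11 turned. Turned values were those of members near 0: PLAUR -0.0785 with the length correction, -0.0791 with this and the block, -0.0595 with limma and -0.181 to 0.268 with 1 library left out; TIMP1 -0.0913, -0.0923, -0.0328 and -0.216 to 0.400 in the same settings; TIMP2 -0.0576 with limma and -0.0318 to 0.135 with 1 library left out; and ADAM9 -0.398 to 0.0871 with 1 left out. PLAUR, TIMP1 and ADAM9 turned without CBX7 replicate 1 and TIMP2 without CBX7 replicate 2. The causes were not tested. Without the most abundant gene, MMP14 or TIMP1, the metalloproteinase sum was 19.3 TPM in control and 24.7 TPM in CBX7 cells and the TIMP sum 97.6 and 96.7 TPM, so the lower sum of metalloproteinases in CBX7 cells is that of MMP14. Depth limits the 11 untested metalloproteinases, which had between 0 and 15 counts per library.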

Other observations

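AC022966.1, annotated as antisense to TIMP2, had 17.0 and 21.2 counts in control libraries and 0 in both CBX7 libraries. Against a limit of 3 counts for each library at 0 this is a low count, and since strand is not stated, reads of TIMP2 and of its antisense gene cannot be told apart. This gene passed the filter only through the control group and was chosen after its values were seen, so no p is given. BSG also has an antisense gene in the table, AC009005.1, with 31, 29, 57 and 27 counts in control replicates 1 and 2 and CBX7 replicates 1 and 2.

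The ratio of deposited TPM to CPM differed between libraries, most for 2 members. MMP3 had 5 counts in both CBX7 libraries but 0.14 TPM in replicate 1 and 1.06 TPM in replicate 2, and its TPM per CPM differed 6.62-fold between libraries. In ADAM10 this ratio differed 1.81-fold, in MMP25 1.6-fold, in MMP15 1.37-fold, in ADAM19 1.34-fold and in MMP14 1.31-fold, whereas in TIMP3 it differed 1.18-fold and in SERPINB2 1.18-fold.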
